A study of Mus musculus with 10 samples.

Results

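Serotonin reaches the striatum in fibres of the raphe nuclei and acts on a large family of receptors. The genes described here are 10 of its members in the mouse, Htr1a, Htr1b, Htr1d, Htr1f, Htr2a, Htr2c, Htr3a, Htr4, Htr6 and Htr7, taken by symbol out of 32531 gene symbols counted in each library. Each was followed in ribosome-bound RNA of striatal cholinergic neurons, as a ratio to total striatal RNA and as a level in each treatment group. All mice were adults of the Chat-TRAP line DW167, which carries Chat-EGFP/Rpl10a, a ribosomal protein fused to a green fluorescent protein under control of the Chat gene, so that ribosomes of cholinergic neurons can be pulled out of homogenised whole striatum with antibodies. Immunopurified (IP) libraries came from mice that self-administered cocaine, from yoked controls and from mice that self-administered saline, with 3 libraries in each group, and 1 library of total RNA from saline mice served as the input. The labels do not say what the yoked mice received or whether a library held 1 animal or a pool, so p-values measure only the spread between these libraries.

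Most serotonin receptors act through G proteins. Those encoded by Htr4, Htr6 and Htr7 couple to the stimulatory G protein and raise cyclic AMP, and those of the Htr1 genes couple to inhibitory G proteins and lower it. The receptors of Htr2a and Htr2c act on phospholipase C through the Gq class, and Htr3a encodes a subunit of a cation channel that serotonin opens directly. Cholinergic neurons of the striatum are tonically active interneurons, and serotonin is known to change their firing and their release of acetylcholine.

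IP libraries held 24526765 to 75220922 gene counts, with cocaine library 2 the deepest, and the input held 40912230. Values are CPM, counts scaled to the total gene count of their library, and were not divided by transcript length, so levels are compared between libraries and not between genes. All 9 cholinergic neuron markers examined, among them Chat, Slc18a3 and Slc5a7, were at least 2-fold higher in each saline IP library than in the input, and their median log2 ratio was 5.76, with an SD of 0.17 over the 3 library medians. All 11 markers of spiny projection neurons, the main cell type of the striatum, were at least 2-fold lower, with a median of −3.04 and an SD of 0.53. Saline libraries were run in lane 3, cocaine and yoked libraries in lane 4 and the input in lane 5 per the labels, so the lane cannot be told apart from the group wherever saline or the input is one side of a comparison.

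Against the input, 1 of the 10 receptor transcripts, Htr7, was at least 2-fold higher in all 3 saline IP libraries, against 12.2% of the 15888 genes measured. A further 6 members were at least 2-fold lower in all 3, namely Htr1b, Htr1d, Htr1f, Htr2a, Htr3a and Htr4, against 23.1% of all genes. The other 3, Htr1a, Htr2c and Htr6, met neither condition. Htr1f, Htr3a and Htr4 held 20, 3 and 36 counts over the 3 saline libraries together. They passed the filter, at least 20 counts in the input or the mean IP library, only through the input, where they are high. Nothing is read from these genes being lower, and the median of the 10 members includes them. The 10 members had a median log2 ratio of −3.18, with an SD of 0.37 over the 3 libraries, and all genes had −0.20, with an SD of 0.024. The input has no replicate, and ribosome-bound RNA and total RNA differ in preparation as well as in cell type. Fewer cells of a type and less RNA per cell cannot be told apart in such samples.

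**Figure D1:**
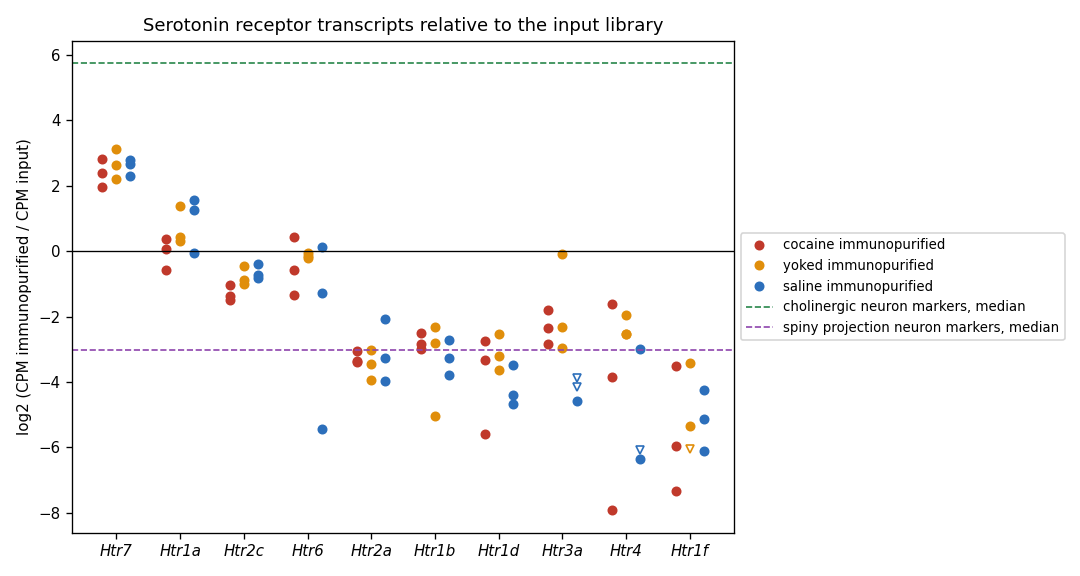
Log2 ratio of CPM in each IP library to CPM in the 1 input library (vertical axis) for the 10 receptor genes, with cocaine, yoked and saline libraries as separate columns of points. Open triangles mark libraries with 0 counts, drawn at the ratio that 3 counts would give, and dashed lines are the medians of 9 cholinergic and 11 spiny projection neuron markers over the saline libraries. Htr7 lies above 0 in 9 of 9 IP libraries, and Htr2c and 6 other members lie below 0 in 9 of 9.

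Among the receptors that raise cyclic AMP, Htr7 (chromosome 19, 35958415 to 36058133, GRCm38) stood above the input in every IP library. It measured 14.1, 25.9 and 19.1 CPM in cocaine libraries 1 to 3, 16.7, 31.97 and 22.9 in yoked libraries, 17.96, 25.0 and 23.3 in saline libraries and 3.64 in the input. The lowest IP library was thus well above the input, while the 3 treatment groups overlapped. The mean log2 ratio of the saline libraries to the input was 2.59 ± 0.25 (SD, n = 3), a 6.01-fold difference. In edgeR's quasi-likelihood test over 17809 genes, where the lone input is assumed to vary like the IP libraries, the log2 fold change was 2.71 ± 0.49 (SE, adjusted p = 7.64e-04). That test called 15.3% of genes higher and 10.7% lower in saline IP RNA.

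Htr6 and Htr4, receptors of the same coupling, had small counts that were uneven between libraries. Htr6 measured 0.938, 0.545 and 1.90 CPM in cocaine libraries 1 to 3, 1.33, 1.25 and 1.20 in yoked libraries, 1.52, 0.0318 and 0.570 in saline libraries and 1.39 in the input. Saline library 2 held 1 count of Htr6 and the other IP libraries 23 to 73, and the input lay inside the range of the IP libraries. The edgeR log2 fold change of saline IP against input was −0.86 ± 1.41 (SE, adjusted p = 0.696) and did not pass. The pooled saline ratio of 0.463 (95% counting interval 0.319 to 0.674) covers counting error only. Htr4 measured 0.448, 0.0266 and 2.10 CPM in cocaine libraries 1 to 3, 1.11, 1.12 and 1.67 in yoked libraries, 0.0781, 0 and 0.808 in saline libraries and 6.48 in the input. Every IP library was below the input. Pooled over the saline libraries, Htr4 had 36 counts and a ratio to the input of 0.0561 (95% counting interval 0.0384 to 0.0796). The edgeR call was missed, with a log2 fold change of −4.26 ± 1.65 (SE, adjusted p = 0.0685). Without saline library 3, the one that held 34 of those counts, the value was −7.23, a fall fixed in advance. The adjusted p was 0.00890 with limma voom and 0.0369 with edgeR and no filter on low counts. Over the alternatives the adjusted p of Htr4 ranged from 0.00890 to 0.146, and nothing is read from Htr4 being lower.

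The Htr1 receptors, which lower cyclic AMP, did not share one pattern. Htr1a (chromosome 13, 105443693 to 105448133), known as the inhibitory receptor on the cell bodies of serotonin neurons and on many of their targets, measured 11.7, 6.01 and 9.46 CPM in cocaine libraries 1 to 3, 11.1, 23.8 and 12.3 in yoked libraries, 21.7, 27.0 and 8.76 in saline libraries and 9.04 in the input. It was above the input in 7 of 9 IP libraries. The saline mean log2 ratio was 0.93 ± 0.86 (SD, n = 3), a difference close to its own spread, and the edgeR value of 1.18 ± 0.59 (SE) did not pass (adjusted p = 0.151). Without saline library 3, where Htr1a stood at 96.9% of the input, the mean ratio was 1.42. Htr1a then joined Htr7 among the members at least 2-fold higher, which was fixed in advance, since saline libraries 1 and 2 already met that rule.

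Htr1b, Htr1d and Htr1f were below the input in 9 of 9 IP libraries. Htr1d, whose receptor acts on axon terminals, measured 3.83, 0.811 and 5.80 CPM in cocaine libraries 1 to 3, 3.11, 6.78 and 4.19 in yoked libraries, 3.51, 1.53 and 1.85 in saline libraries and 39.0 in the input. Its saline mean log2 ratio was −4.18 ± 0.63 (SD, n = 3), and the edgeR log2 fold change was −3.98 ± 0.70 (SE, adjusted p = 5.99e-04). Htr1b, the terminal autoreceptor of serotonin fibres and a receptor of many other axon terminals, ranged from 0.329 to 2.18 CPM over the 9 IP libraries, against 10.8 in the input. Its saline mean log2 ratio was −3.26 ± 0.53, with an edgeR log2 fold change of −3.09 ± 0.88 (SE, adjusted p = 0.0172). That call was lost without saline library 3 (adjusted p = 0.0591, in a range of 0.00296 to 0.0591 over the alternatives). A noncoding RNA gene, D430036J16Rik, overlaps Htr1b, and their reads cannot be told apart there. Htr1f ranged from 0 to 0.619 CPM over the 9 IP libraries, against 6.62 in the input. It had 20 counts in the 3 saline libraries together and a pooled ratio to the input of 0.0305 (95% counting interval 0.0183 to 0.0480). Its edgeR call (−4.84 ± 1.63, SE, adjusted p = 0.0398) was lost when saline library 1, 2 or 3 was left out. The adjusted p values were then 0.0607, 0.0939 and 0.102, in a range of 0.00345 to 0.102 over the alternatives. As said above, nothing is read from Htr1f being lower.

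The Htr2 receptors, which act on phospholipase C, were both below the input, by unlike amounts. Htr2a measured 3.22, 2.62 and 2.58 CPM in cocaine libraries 1 to 3, 1.75, 3.29 and 2.44 in yoked libraries, 2.81, 6.40 and 1.73 in saline libraries and 27.0 in the input. Every IP library was far below the input, and the saline mean log2 ratio was −3.10 ± 0.95 (SD, n = 3). The edgeR log2 fold change was −2.79 ± 0.60 (SE, adjusted p = 0.00276). Htr2c (chromosome X, 146962464 to 147197277) measured 26.4, 24.5 and 33.3 CPM in cocaine libraries 1 to 3, 37.1, 50.4 and 33.7 in yoked libraries, 38.7, 51.9 and 41.0 in saline libraries and 68.4 in the input. It too was below the input in 9 of 9 IP libraries, but closer to it, at 56.5 to 75.9% of the input in saline libraries. The saline mean log2 ratio was −0.65 ± 0.23 (SD, n = 3), and edgeR gave −0.53 ± 0.27 (SE, adjusted p = 0.162), which did not pass.

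Htr3a (chromosome 9, 48899213 to 48911152), the channel subunit, had few counts, and a noncoding RNA gene, Gm32335, overlaps it. It held 12, 25 and 7 counts in cocaine libraries 1 to 3, 19, 49 and 6 in yoked libraries, 0, 0 and 3 in saline libraries and 70 in the input. As CPM these are 0.489, 0.332 and 0.237 in cocaine libraries 1 to 3, 0.346, 1.61 and 0.218 in yoked libraries, 0, 0 and 0.0713 in saline libraries and 1.71 in the input. All IP libraries were below the input, with yoked library 2 close to it. The pooled saline ratio to the input was 0.0177 (95% counting interval 0.00356 to 0.0539). The edgeR call against the input (−5.71 ± 1.79, SE, adjusted p = 0.0280) was lost without saline library 1 (0.0743) or saline library 2 (0.0614). The adjusted p ranged from 0.00484 to 0.0743 over the alternatives. As said above, nothing is read from Htr3a being lower.

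Of the other serotonin receptor genes, Htr5a, whose receptor couples to inhibitory G proteins, was above the input in 9 of 9 IP libraries, at 34.8 to 81.1 CPM against 17.9. Its saline mean log2 ratio was 1.07 ± 0.13 (SD, n = 3) and its edgeR value 1.19 ± 0.38 (SE, adjusted p = 0.0321), a call lost without saline library 2 (0.0634) or saline library 3 (0.0507), in a range of 0.00899 to 0.0634 over the alternatives. Htr2b, Htr3b and Htr5b had 8, 0 and 1 counts in the 3 saline libraries together and 49, 4 and 16 in the input.

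The genes whose ratio to the input was most like that of Htr7 over the 9 IP libraries were Lipa, a lysosomal acid lipase, Adgrg2, an adhesion G protein-coupled receptor, and B4galnt4, a glycosyltransferase. Their root mean square differences from Htr7 in log2 ratio were 0.19, 0.21 and 0.21. They were sought among 10219 genes with a mean of at least 5 CPM over the IP libraries and at least 20 counts in the input.

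The stretches around the start sites are shown for Htr7, the member highest relative to the input, and for Htr1a and Htr2c, the members with the smallest p-values for cocaine against saline. Each runs 5′ to 3′ on the strand of the gene, 250 bases before to 50 after the start site (RefSeq promoter table, GRCm38.p6, which held 8 of the 10 members), with CG pairs in capitals. The start sites that this table uses for Htr7 and Htr2c lie inside the gene spans given above, and that of Htr1a at the edge of its span. They lie at chr19:36057311-36057610 (minus strand) for Htr7, chr13:105443443-105443742 (plus strand) for Htr1a and chrX:146962263-146962562 (plus strand) for Htr2c.
Htr7: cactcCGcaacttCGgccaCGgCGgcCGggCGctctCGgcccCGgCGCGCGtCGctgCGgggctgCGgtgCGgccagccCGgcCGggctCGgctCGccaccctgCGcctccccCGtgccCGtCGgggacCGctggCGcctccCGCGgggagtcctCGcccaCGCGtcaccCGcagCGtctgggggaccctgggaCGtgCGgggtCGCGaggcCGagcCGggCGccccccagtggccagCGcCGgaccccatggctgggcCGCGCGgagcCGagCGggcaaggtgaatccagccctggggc
Htr1a: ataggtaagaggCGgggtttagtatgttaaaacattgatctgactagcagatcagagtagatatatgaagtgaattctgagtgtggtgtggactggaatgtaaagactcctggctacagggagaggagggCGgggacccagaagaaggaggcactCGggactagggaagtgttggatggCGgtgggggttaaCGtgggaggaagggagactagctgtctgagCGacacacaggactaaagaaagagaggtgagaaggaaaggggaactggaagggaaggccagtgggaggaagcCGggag
Htr2c: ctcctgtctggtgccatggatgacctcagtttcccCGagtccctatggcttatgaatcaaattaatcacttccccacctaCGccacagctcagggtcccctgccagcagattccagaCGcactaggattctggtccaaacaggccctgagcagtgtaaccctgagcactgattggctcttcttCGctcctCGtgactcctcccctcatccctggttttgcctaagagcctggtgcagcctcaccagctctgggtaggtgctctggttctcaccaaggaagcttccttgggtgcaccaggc
The Htr7 window is 81.0% G and C and holds 46 CG pairs, as many as or more than which are found in 1.65% of the 32851 promoter windows of that length. The Htr1a window is 52.3% G and C with 7 CG pairs and the Htr2c window 56.3% with 5, near the medians of all windows, 52.7% and 7. None of the 3 windows holds TAATTA, the core of homeodomain sites, or TGACGTCA, the cyclic AMP response element, which occur on either strand in 5.29% and 1.79% of all windows. The GC box GGGCGG or its complement CCGCCC occurs once in the Htr1a window and in 35.7% of all windows.

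The genes that act before and after these receptors were measured in the same libraries. Of the enzymes and transporters that make, move and break down serotonin, 2 of 6 tested were called higher in saline IP RNA than in the input and 0 lower, against 15.3% and 10.7% of all genes tested. Maob and Maoa, the monoamine oxidases, had edgeR log2 fold changes of 3.02 ± 0.28 and 1.92 ± 0.32 (SE, adjusted p = 2.83e-06 and 3.69e-04). Slc18a2, the vesicular monoamine transporter, had 0.36 ± 0.41 (SE, adjusted p = 0.545), and Ddc, which decarboxylates the serotonin precursor, had −2.42 ± 1.45 (adjusted p = 0.238). Tph2, which makes serotonin in neurons, ranged from 0 to 1.79 CPM over the IP libraries, against 0.464 in the input. Slc6a4, the serotonin transporter, and Fev, a transcription factor of serotonin neurons, had at most 3 counts in any library.

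Of the G protein alpha subunits, 3 of 10 were called higher and 0 lower, against 15.3% and 10.7% of all genes. They were Gnas, the stimulatory subunit, at 1.82 ± 0.32 (SE, adjusted p = 6.23e-04), Gnai2 at 1.40 ± 0.28 (adjusted p = 0.00159) and Gna11 at 0.84 ± 0.22 (adjusted p = 0.0106). Gnal, the stimulatory subunit of spiny projection neurons, had −0.41 ± 0.25 and Gna14, of the Gq class, −2.26 ± 2.24; neither passed (adjusted p = 0.249 and 0.492). Of the adenylyl cyclases, which make cyclic AMP, 2 of 8 were called higher and 2 lower, beside the same shares of all genes. Adcy2 and Adcy6 were higher, at 3.78 ± 0.41 and 2.17 ± 0.37 (SE, adjusted p = 1.17e-05 and 5.42e-04), while Adcy5, the main cyclase of spiny projection neurons, and Adcy9 were lower, at −1.46 ± 0.26 and −1.08 ± 0.24 (adjusted p = 6.92e-04 and 0.00393). Of the beta class of phospholipase C, Plcb4 was higher at 2.36 ± 0.40 and Plcb1 lower at −2.48 ± 0.46 (SE, adjusted p = 5.02e-04 and 0.00123), out of 4.

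Receptor kinases and arrestins, which end receptor signalling, were called higher in 4 of 7 cases and lower in 0, against 15.3% and 10.7% of all genes. The 2 with the smallest p were Grk5 at 2.07 ± 0.31 and Grk6 at 1.65 ± 0.34 (SE, adjusted p = 1.77e-04 and 0.00229), and Arrb1, an arrestin, had 0.54 ± 0.23 (adjusted p = 0.0953). Of 3 genes of the RNA editing family, whose active enzymes recode Htr2c transcripts, Adarb1 was called higher at 2.17 ± 0.25 (SE, adjusted p = 2.09e-05), as was Adar at 0.70 ± 0.25 (adjusted p = 0.0477). The adjusted p of Adar ranged from 0.0366 to 0.132 over the alternatives, and Adarb2 had −1.66 ± 0.66 and did not pass (adjusted p = 0.0778). Editing of Htr2c itself cannot be read from gene counts. Among 4 partner proteins, S100a10, which binds the receptors of Htr1b and Htr4, was called higher at 3.14 ± 0.45 (SE, adjusted p = 1.27e-04). The others, Mpdz and Dlg4, scaffold proteins that bind the Htr2 receptors, and Ric3, a chaperone of the channel encoded by Htr3a, had −0.93, −0.46 and 0.83 and did not pass (adjusted p = 0.0618, 0.177 and 0.0534).

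**Figure D2:**
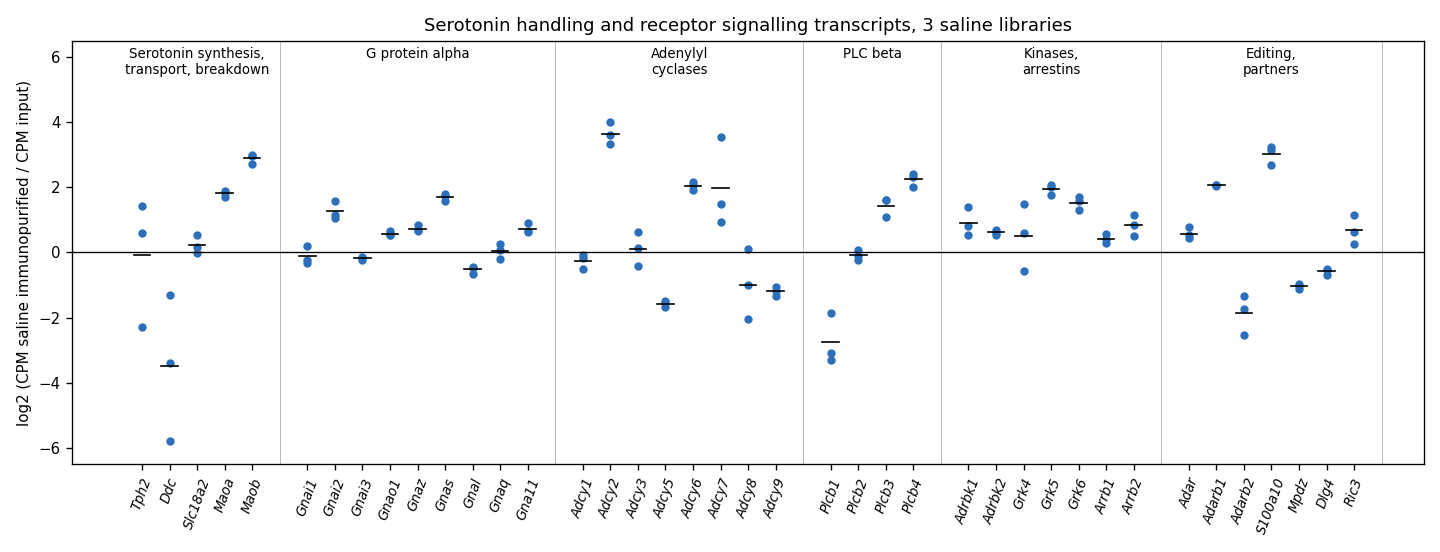
Log2 ratio of CPM to the input (vertical axis) in each of the 3 saline IP libraries (points) with their mean (bar), for genes of serotonin handling and receptor signalling, grouped by role. Maob, Adcy2, Plcb4, Adarb1 and S100a10 lie at least 2-fold above the input in all 3 libraries, and Adcy5, Adcy9 and Plcb1 at least 2-fold below it.

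The treatment comparisons asked whether cocaine self-administration changed these transcripts relative to saline self-administration and to yoked controls. All 10 members passed the filter on low counts, but none passed edgeR's test in any comparison. Over all 14989 genes tested, 0 were called at an adjusted p under 0.05 (0%) in any of them. Unadjusted p-values under 0.05 numbered 791 in cocaine against saline, 391 in cocaine against yoked, 327 in yoked against saline and 419 (2.8% of genes) in the test of any difference among the 3 groups. In that last test Htr2c had an unadjusted p-value of 0.0196 (adjusted p = 0.9995). DESeq2 and limma voom called 0 genes as well.

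**Figure D3:**
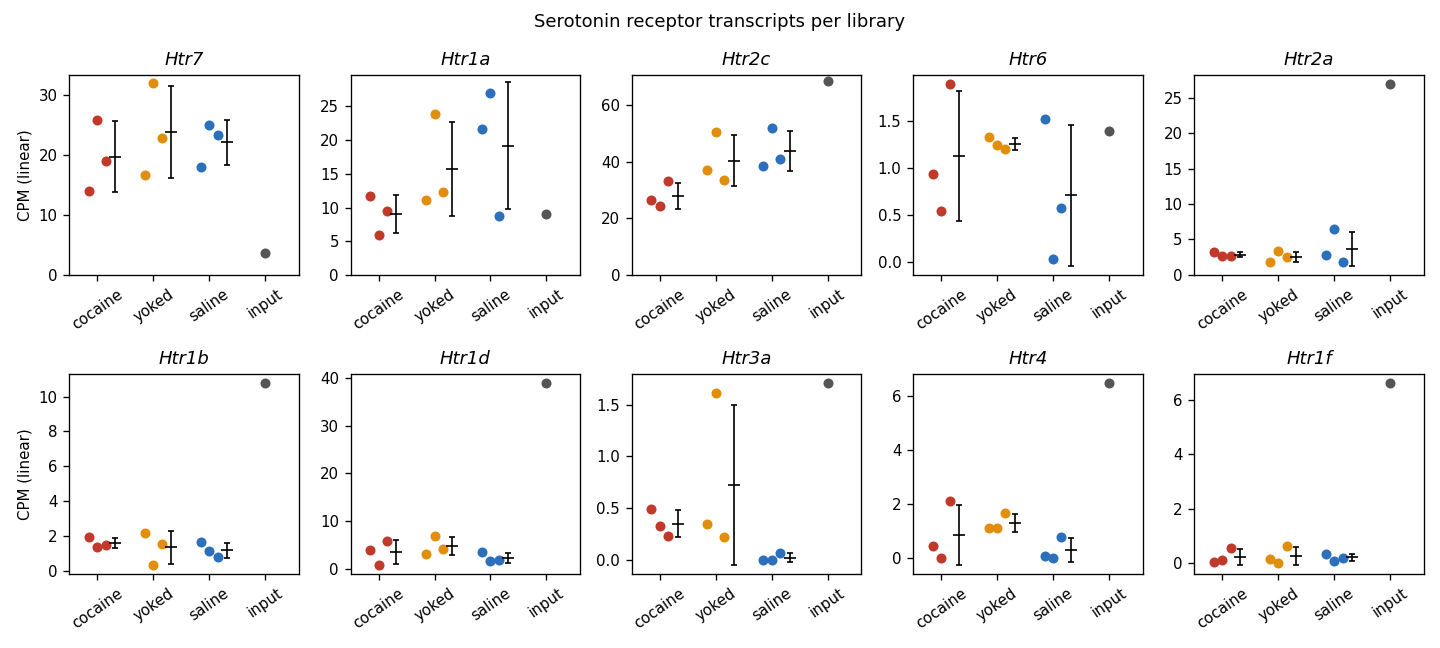
CPM on a linear axis for the 10 receptor genes in each library (points), by group (cocaine, yoked, saline, input), with the mean and SD over 3 libraries beside each IP group; the lower SD bar of Htr6, Htr3a, Htr4 and Htr1f can reach below 0. Htr2c lies between 24.5 and 33.3 CPM in cocaine libraries 1 to 3, below all yoked and saline libraries, and Htr7 overlaps between groups.

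Htr2c was lower in all 3 cocaine libraries than in any yoked or saline library. It averaged 28.0 ± 4.62 CPM in cocaine, 40.4 ± 8.84 in yoked and 43.9 ± 7.08 in saline libraries (SD, n = 3 each). The highest cocaine library, 33.3 CPM, and the lowest yoked library, 33.7 CPM, were close. The edgeR log2 fold change was −0.63 ± 0.20 (SE, 95% interval −1.06 to −0.20, unadjusted p = 0.00717, adjusted p = 0.850) for cocaine against saline. It was −0.49 ± 0.20 (−0.92 to −0.06, unadjusted p = 0.0285, adjusted p = 0.9997) for cocaine against yoked and −0.14 ± 0.20 (−0.57 to 0.29, adjusted p = 0.9993) for yoked against saline. Cocaine and yoked libraries carried the same lane number, so their comparison is made within a lane. Htr2c was 1 of the 10 members lower without overlap in cocaine, against 5.4% of genes relative to saline and 3.37% relative to yoked. Without the 3 libraries numbered replicate 2 the values were −0.43 and −0.27 for cocaine against saline and against yoked. The choroid plexus is a tissue known for abundant Htr2c. A list of 6 markers of choroid plexus and ependyma summed to 7.77 to 9.70 CPM in cocaine and 5.83 to 23.3 in yoked libraries. The sum was 5.98 to 95.3 in saline libraries and 26.5 in the input. In cocaine library 2 Foxj1 alone gave 8.22 of 8.64 CPM. The highest sum, in saline library 3, came mostly from Ttr at 85.8 CPM, while Folr1 was at 0 in all cocaine libraries, yoked libraries 1 and 2, saline libraries 1 and 2 and the input, and Kcne2 in all cocaine and yoked libraries. Their part in the Htr2c values was not tested.

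Htr1a had the next smallest unadjusted p-value for cocaine against saline. It averaged 9.04 ± 2.85 CPM in cocaine, 15.7 ± 7.01 in yoked and 19.2 ± 9.39 in saline libraries (SD, n = 3 each), and the groups overlapped, since saline library 3 lay below 2 of the cocaine libraries. The log2 fold change was −1.07 ± 0.40 (SE, 95% interval −1.92 to −0.22, unadjusted p = 0.0173, adjusted p = 0.850) for cocaine against saline. It was −0.76 ± 0.40 (−1.61 to 0.09, unadjusted p = 0.0744) for cocaine against yoked. Without the libraries numbered replicate 2, the values were −0.53 and −0.17, and without yoked library 2 alone the value against yoked was −0.38.

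Htr3a was higher in every cocaine and every yoked library than in any saline library, on the small counts given above, and was the 1 member of 10 higher without overlap in cocaine than in saline libraries, against 4.88% of genes. It passed the filter on low counts only through cocaine and yoked libraries, where it is high, so no p-value against saline is given and nothing is read from its lack of overlap. The pooled counts of 44 in cocaine and 3 in saline libraries give an 11.3-fold ratio (95% counting interval 3.61 to 56.6), and the 74 in yoked libraries a 21.7-fold ratio to saline (7.13 to 107). Yoked library 2 held 49 of those 74 counts. Cocaine and yoked libraries share the saline libraries in these comparisons and share a lane that differs from theirs. Markers of other striatal interneurons, among which Htr3a is a known marker of some classes, had a positive log2 fold change for 6 of 8 genes in each of these comparisons, with none called. Of all 14989 genes tested, 7582 were positive in cocaine against saline and 7183 in yoked against saline. In mean CPM, Vip was lower in cocaine (0.380) and yoked libraries (0.508) than in saline libraries (0.883). Calb2 was lower than saline in cocaine libraries (0.0226 against 0.246) and Sst in yoked libraries (10.3 against 11.2). The other interneuron markers were higher than saline in both. The interneuron markers summed to 40.5 to 62.2 CPM in cocaine, 34.9 to 57.0 in yoked and 29.5 to 39.8 in saline libraries, against 323 in the input, with Calb2 at 0 in cocaine libraries 1 and 2. Their part in the Htr3a values was not tested.

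The remaining members showed wider or smaller differences. Htr4 was higher without overlap in yoked than in saline libraries, where 4.3% of all genes were. Saline libraries alone would not have passed it through the filter on low counts, so nothing is read from this lack of overlap. Htr3a was higher without overlap there too, and nothing is read from that either, because of how it passed the filter. Lower without overlap there were 0 of the 10 members, against 2.74% of genes. The edgeR log2 fold change of Htr4 in yoked against saline was 2.05 ± 1.45 (SE, adjusted p = 0.9993). Its pooled counts were 141 in yoked and 36 in saline libraries. Without saline library 3, which held 34 of the 36, the value was 5.02, a rise fixed in advance. Htr7 averaged 19.7 ± 5.93 CPM in cocaine, 23.8 ± 7.69 in yoked and 22.1 ± 3.69 in saline libraries (SD, n = 3 each). Its log2 fold change was −0.14 (95% interval −0.75 to 0.47) for cocaine against saline and −0.22 (−0.82 to 0.39) for cocaine against yoked, intervals that take in changes of more than 1.5-fold. In CPM, Htr7 was lower in the cocaine library than in the yoked library of the same number in 3 of 3 pairs, and so was Htr2c. The share of all genes lower in 3 of 3 pairs was not counted, so nothing is read from this. Htr7 did not pass with the number as a block either. Htr1b, Htr1d, Htr1f, Htr2a and Htr6 overlapped between groups in every comparison. No member was higher without overlap in cocaine than in yoked libraries, against 3.42% of genes.

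Counted over the 10 members, the log2 fold change was positive for 6 and negative for 4 in cocaine against saline, with a median of 0.31 beside 0.0049 over all genes. It was positive for 2 and negative for 8 in cocaine against yoked, with a median of −0.32 beside 0.0011. It was positive for 7 and negative for 3 in yoked against saline, with a median of 0.25 beside −0.014. The signs were mixed in each comparison, and the 3 comparisons share libraries. Unadjusted p-values under 0.05 were reached by Htr2c and Htr1a, both lower, in cocaine against saline, where 2.52% of genes were lower and 2.76% higher by that rule. They were reached by Htr2c in cocaine against yoked, where 0.974% of genes were lower and 1.63% higher. In yoked against saline 0 of the other 9 members reached them, where 1.38% of genes were higher and 0.801% lower. Htr3a is left out of these counts of p-values because of how it passed the filter. The signs and medians above are of all 10 members and include it.

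**Figure D4:**
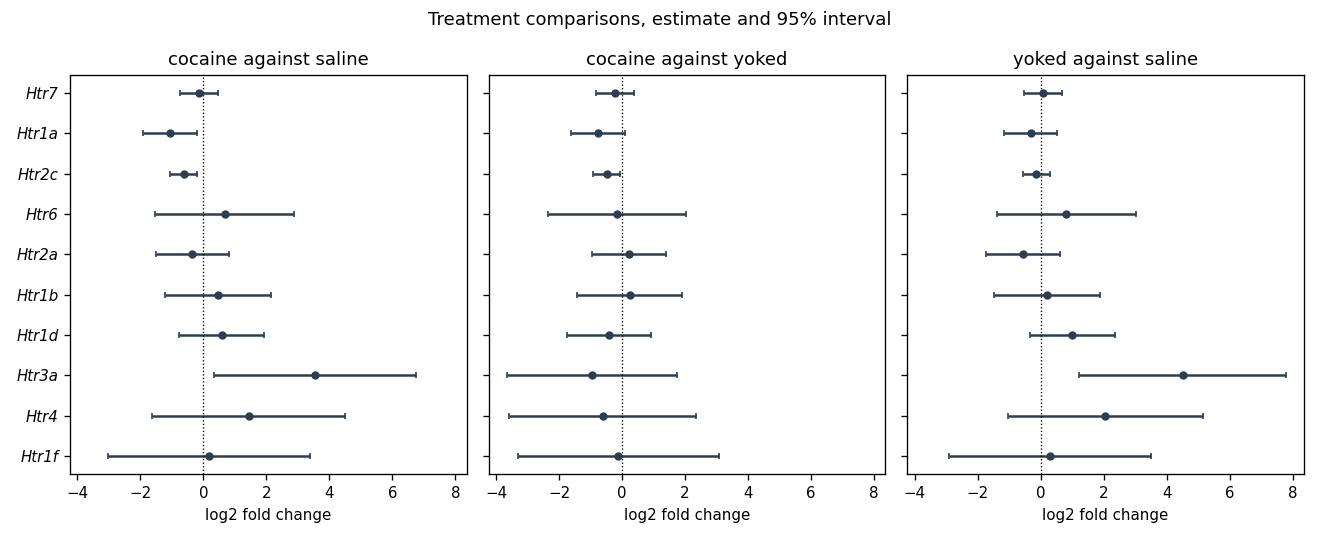
Log2 fold change (horizontal axis, point) with 95% interval (line) from edgeR for the 10 receptor genes in cocaine against saline, cocaine against yoked and yoked against saline. Intervals of Htr2c lie below 0 in both cocaine comparisons, and those of Htr1f, Htr4 and Htr3a are the widest. Htr3a passed the filter on low counts only through cocaine and yoked libraries, so nothing is read from its intervals against saline.

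Outside the 10 members, Htr5a was higher without overlap in cocaine libraries, at 41.8, 81.1 and 42.7 CPM, than in yoked libraries at 34.8, 41.0 and 36.7 and saline libraries at 36.7, 41.6 and 34.9. The log2 fold change was 0.58 ± 0.25 (SE, adjusted p = 0.850) against saline and 0.61 ± 0.25 (SE, adjusted p = 0.9997) against yoked, and without cocaine library 2 it was 0.17 and 0.19. No gene of the signalling lists passed in a treatment comparison. For cocaine against saline the smallest unadjusted p-values among the alpha subunits were those of Gnai3 at −0.57 ± 0.22 and Gnaz at 0.67 ± 0.26 (SE), with unadjusted p = 0.0193 and 0.0198 and adjusted p = 0.850 for both in edgeR's test, and without cocaine library 2 they were −0.34 and 0.21. Maoa was −0.47 ± 0.20 (SE), with unadjusted p = 0.0346 and adjusted p = 0.850 in edgeR's test, and −0.25 without cocaine library 2.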

How the data were processed

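For each of the 10 libraries the authors deposited a table of raw counts by gene symbol, made with STAR 2.0.0e and HTSeq (no version given) on mm10, per the submitters' processing notes. The annotation, strand setting and read filters are not given in the sources used here, so reads of overlapping genes cannot be told apart: RefSeq (GRCm38.p6) places a noncoding RNA over Htr1b, Htr3a and Htr4 and small RNAs inside Htr2c. Reads without a gene were left out, and the row with no gene name held at most 1 count.

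Groups were compared in R 4.3.3 with edgeR 4.0.16 (robust quasi-likelihood F-test, TMM scaling, Benjamini-Hochberg adjustment over all genes, called at 0.05). Genes passed filterByExpr (minimum count 10, minimum total 15), which left 14989 genes for the 9 IP libraries and 17809 with the input added; both fits had 6 residual degrees of freedom. The steps were tested on simulated counts. Log2 ratios to the input used CPM of genes with at least 20 counts in the input or the mean IP library, and a count of 0 was set to 3 counts. Counting intervals are exact (95%) and cover counting error only, since reads carry no molecular identifiers.

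Alternatives were DESeq2 1.42.0, limma voom (limma 3.58.1), other scalings, filters, pseudocounts and thresholds, left-out libraries and the replicate number as a block. Same-numbered libraries had correlations of 0.103, 0.117 and 0.157 in cocaine and yoked and of 0.158, 0.186 and 0.139 in yoked and saline. Libraries of unlike number ran from −0.104 to −0.011 and from −0.158 to 0.067 in the same order. Values were centred on their group mean, which pulls matched and unmatched numbers to opposite signs. The pairing thus comes from the data and is weak, and the labels do not state what a number shares. Members and gene lists were chosen with earlier results of these data known. All members were named, and of each other list up to 4 called genes by smallest p or, with none called, up to 2. Of the 4 receptor kinases and arrestins called against the input, only 2 were named. Against the input, the genes of highest and lowest ratio in each signalling list were added. Gnal, Slc18a2, Dlg4 and Ric3 were chosen after their values were seen.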

Additional observations from a re-analysis of the deposited data

How the results depend on the processing

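Without a filter on low counts, edgeR called 60 genes in cocaine against saline, 27 in cocaine against yoked, 18 in yoked against saline and 98 in the test of any difference, against 0 in each with it; 0 members were called in these comparisons under any alternative run, and the lowest adjusted p of a member was 0.118 (Htr1a, cocaine against saline, no filter). Leaving out libraries gave 0 genes in each treatment comparison. At a 4-fold threshold 566 genes were higher and 2045 lower in saline IP RNA than in the input. With 1 saline library left out, members higher numbered 1 to 2 (2097 to 2299 of all genes, against 1934) and members lower 6 to 7 (4017 to 4169, against 3675), and edgeR called 4 to 5 members in place of 6 and 3639 to 4259 genes in place of 4630. Fewer libraries then had to meet the 2-fold rule. The 6 members that edgeR called include Htr1f and Htr3a, and nothing is read from these being lower.

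Signs turned with limma voom for Htr1d (−0.15, cocaine against saline), Htr7 (−0.011, yoked against saline) and Htr1f (−0.34 in cocaine against saline, 0.39 in cocaine against yoked, −0.72 in yoked against saline). With the replicate block they turned for Htr1f (−0.20, 0.29 and −0.49 in the same order); the block, a pairing by replicate number, called 0 genes in each comparison and changed no call. For cocaine and saline the correlations of same-numbered libraries were 0.101, 0.113 and 0.0874, and those of unlike number ran from −0.116 to 0.0571.

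Left-out libraries turned the sign of these log2 fold changes, whose lowest and highest values were as follows. For cocaine against saline they were −1.36 to 0.70 for Htr1f, −0.68 to 0.35 for Htr2a, −0.43 to 4.40 for Htr4 and −0.41 to 0.061 for Htr7. For cocaine against yoked they were −0.22 to 0.80 for Htr1b, −0.99 to 0.38 for Htr1d, −1.65 to 1.42 for Htr1f, −1.38 to 0.31 for Htr3a, −0.73 to 0.18 for Htr6, −0.50 to 0.014 for Htr7 and −0.33 to 0.079 for Maoa. For yoked against saline they were −0.67 to 0.015 for Htr1a, −0.35 to 0.69 for Htr1b, −1.24 to 0.88 for Htr1f, −0.90 to 0.10 for Htr2a and −0.13 to 0.26 for Htr7.

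With all 9 IP libraries the mean log2 ratio to the input was −0.91 for Htr2c and −2.78 for Htr3a, and adding 0.5 counts moved Htr3a to −5.87. Htr3a could not be fitted without the libraries numbered replicate 2, since it fell below the filter. The single input, 3 libraries a group and counts of at most 73 per IP library for Htr1f, Htr3a, Htr4 and Htr6 limit what can be detected. The causes of these changes were not tested.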
